A study of Mus musculus with 9 samples.

Results

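Transcript levels of 6 glial genes, Mbp, S100b, Frzb, Fabp7, Npy and Sox10, were followed in RNA sequencing of the whole main olfactory epithelium (MOE), the nasal tissue that holds the olfactory sensory neurons (OSNs). The genes were taken as a named list for the glia of the nerve bundles under the epithelium, and all 6 were found among the 24421 genes with raw counts and among the 19775 genes tested. The 9 libraries came from mice at postnatal day 14 of a line in which TAAR enhancer 2, a regulatory element of the trace amine-associated receptor (Taar) genes, had been removed by CRISPR-Cas9. Their strain is labelled C57BL/6, while the study's description of its mouse lines as a whole gives mixed backgrounds. There were 3 libraries each of wild type (WT), heterozygous knockout (het) and homozygous knockout (homo) littermates, numbered 1 to 3 within each genotype. Males and females were used, the labels give no sex, and the labels do not say what a replicate number marks or whether a library came from 1 animal, so p-values measure the spread between these libraries. The deletion is carried in all cells of an animal, glia included, and the tissue was not sorted, so the values are averages over all cells of the dissected piece.

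OSN axons leave the epithelium in bundles that run through the lamina propria to the olfactory bulb. Olfactory ensheathing glia, a neural crest derivative, wrap many unmyelinated OSN axons together, while the trigeminal branches in the same tissue are accompanied by Schwann cells, some of which form myelin. Sox10 encodes the transcription factor that specifies and maintains both glial types and drives myelin genes in Schwann cells. Fabp7 (brain lipid-binding protein) and S100b (a calcium-binding protein) mark ensheathing glia and immature Schwann cells. Npy (neuropeptide Y) and Frzb (a secreted Wnt antagonist) are known from ensheathing glia, and Mbp (myelin basic protein) is a structural protein of compact myelin.

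In GRCm38 the genes lie on 5 chromosomes. S100b is at chr10:76253853-76261159 (plus strand), Frzb at chr2:80411970-80447625 (minus), Fabp7 at chr10:57784881-57788450 (plus), Npy at chr6:49822710-49829507 (plus) and Sox10 at chr15:79154908-79165240 (minus), Mbp is placed where its values are given, and all are annotated as protein-coding. S100b and Fabp7 share chromosome 10 with the deleted element but lie 52.3 and 33.8 Mb from the interval between Taar6 and Taar7a that holds it. S100b overlaps Dip2a, and Mbp overlaps the pseudogene Rpl21-ps8, each on the other strand. Since the strand setting of the counting is not given in the sources used here, reads of these partners may be included.

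The sequence before the transcription start is shown for the pair whose levels were most alike across the libraries after Mbp and Sox10, S100b and Fabp7, and for Npy, the gene with the largest difference between replicate numbers. Each line holds bases 250 to 51 before the RefSeq start (GRCm38.p6), 5′ to 3′ on the strand of the gene. Capitals mark any of 4 SOX-type hexamers, searched on both strands. The letters were ACAAAG in the first form and ACAATG in the second, with TCAAAG in the third and TCAATG in the last; no form overlaps another in the printed windows. The windows are chr10:76253586-76253785 for S100b, chr10:57784673-57784872 for Fabp7 and chr6:49822460-49822659 for Npy, all on the plus strand.
S100b: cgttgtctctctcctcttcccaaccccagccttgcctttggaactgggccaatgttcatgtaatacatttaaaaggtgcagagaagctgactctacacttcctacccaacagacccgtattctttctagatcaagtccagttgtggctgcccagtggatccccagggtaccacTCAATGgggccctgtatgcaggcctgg
Fabp7: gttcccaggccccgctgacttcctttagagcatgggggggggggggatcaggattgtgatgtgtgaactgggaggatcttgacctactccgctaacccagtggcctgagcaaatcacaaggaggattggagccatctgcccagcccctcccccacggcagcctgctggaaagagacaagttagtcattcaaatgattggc
Npy: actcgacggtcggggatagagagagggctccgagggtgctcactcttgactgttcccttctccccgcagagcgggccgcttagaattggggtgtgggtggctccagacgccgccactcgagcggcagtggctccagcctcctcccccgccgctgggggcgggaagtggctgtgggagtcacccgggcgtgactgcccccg

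The S100b window held 1 such hexamer, TCAATG, and the Fabp7 and Npy windows held 0. Any of the 4 hexamers was present in 34.1% of the 32851 windows of this length, so 1 match in a window is common. The Frzb window, not printed because it reaches into the annotated gene, held 1 match. These letters describe the windows only.

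Total counts per library ranged from 20527992 to 32262005 (median 26174388), and levels are given in CPM, the count of a gene scaled to a common depth on TMM library sizes. The labelled tissue carried its markers, with 7 mature OSN genes summing to between 5998 and 6864 CPM. Glial genes outside the 6 were also present in all 9 libraries, among them Erbb3 (74.3 to 103 CPM), the neuregulin receptor of neural crest glia. Of the genes of oligodendrocytes, the myelin-forming cells of the brain, Mog had 0 to 4 counts per library and Opalin had 0 counts in all 9, which allows a level of up to 0.0933 to 0.147 CPM by counting error alone. Others of that list were present, and Olig1, Olig2 and Bcas1 are given with it further on. Of the olfactory bulb neuron list, the interneuron gene Slc32a1 had 0 to 8 counts per library, whereas Calb2 had 260.7 to 351 CPM, Reln 26.2 to 37.8 CPM and Gad2 263 to 563 counts. WT replicate 3 stood apart in its immune transcripts, with 397 CPM of the neutrophil gene S100a9 where the other 8 libraries had between 9.57 and 86.3.

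Per kb of merged exon length, Fabp7 was the highest of the 6 genes at 85.7 CPM per kb (range over the 9 libraries 61.0 to 112). S100b followed at 21.6 (18.4 to 25.6), then Sox10 at 14.04 (10.96 to 18.1) and Mbp at 7.81 (6.27 to 10.4). Each of these 4 was above the next gene in the order in 9 of 9 libraries. Npy (5.29 CPM per kb, range 2.76 to 9.47) and Frzb (3.23, range 2.77 to 4.01) closed the order and were not separated beyond their spread, since Npy was above Frzb in 8 of 9 libraries. Among the genes of each library, Fabp7 stood at a median percentile of 98.6 in CPM per kb, S100b at 89.9, Sox10 at 80.8, Mbp at 69.1, Npy at 62.3 and Frzb at 54.3.

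**Figure D1:**
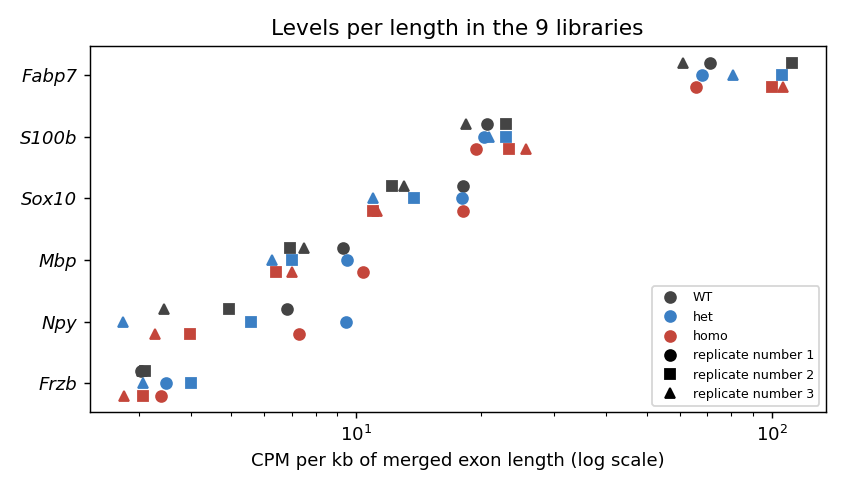
Level of each gene in CPM per kb of merged exon length (horizontal log axis) in the 9 MOE libraries, coloured by genotype and with a marker shape for each replicate number. Fabp7 lies above all other genes in every library, and Npy spreads most, from 2.76 to 9.47 CPM per kb.

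The first comparison asked whether loss of TAAR enhancer 2 came with a change in these glial transcripts. None of the 6 genes was called in homo against WT, het against WT or homo against het, and for each gene the ranges of the genotypes overlapped. A call needed a fold change over 1.5 and an edgeR quasi-likelihood p that stayed under 0.05 after Benjamini-Hochberg adjustment over all genes tested. Over all 19775 genes the same rule called 0.0202% in homo against WT, 0% in het against WT and 0.00506% in homo against het, and a test for any genotype difference called 0.00506%. At such a background a count of 0 of 6 says nothing particular about these genes. None of the 6 had an unadjusted p under 0.05 in any of these comparisons, DESeq2 and limma-voom also called 0 of 6, and all 6 adjusted p-values were 1 in edgeR. In these bulk libraries, fewer cells expressing a gene and less of its RNA per cell cannot be told apart, for any difference given here. The values also do not separate reads of glia from reads of other cells of the tissue.

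Sox10, which sits at the head of the glial programme, had 55.2, 37.2 and 39.9 CPM in WT replicates 1, 2 and 3. It had 54.8, 42.0 and 33.4 CPM in the het libraries and 55.2, 33.5 and 34.3 CPM in the homo libraries. In every genotype replicate 1 was the highest library, and the genotypes covered the same range. The log2 fold change of homo against WT was −0.10 (SE 0.26, 95% interval −0.67 to 0.48), and that of het against WT was −0.02 (SE 0.26). In a fit blocked by replicate number, het against WT gave −0.03 (SE 0.10). Homo against WT gave −0.12 (SE 0.10, 95% interval −0.35 to 0.11) in that fit.

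Mbp (chromosome 18, 82475146 to 82585637, plus strand), the myelin protein gene, had 78.7, 58.6 and 63.4 CPM in WT, 80.4, 59.5 and 53.1 in het, and 88.0, 54.3 and 59.5 in homo. The pattern over the libraries was that of Sox10, with replicate 1 highest in each genotype. Homo against WT gave a log2 fold change of 0.02 (SE 0.22, 95% interval −0.48 to 0.51). Blocked by replicate number, the 95% interval of this comparison was −0.20 to 0.19 (SE 0.09).

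Fabp7, the lipid-binding protein gene of ensheathing glia, had 88.8, 139.9 and 76.3 CPM in WT. It had 85.1, 132.4 and 101.1 CPM in het and 82.4, 125.0 and 133.3 CPM in homo. Replicate 1 was here the lowest in het and homo and below the mean in WT, and WT replicate 3, the library with the high immune transcripts, was the lowest of all 9. Homo against WT gave a log2 fold change of 0.17 (SE 0.26, 95% interval −0.42 to 0.75), which became −0.01 without WT replicate 3.

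S100b had 30.6, 34.1 and 27.3 CPM in WT, 30.2, 34.0 and 31.0 in het, and 28.8, 34.6 and 38.0 in homo. As for Fabp7, WT replicate 3 was the lowest library and homo replicate 3 was among the highest. The log2 fold change of homo against WT was 0.15 (SE 0.13, 95% interval −0.15 to 0.45), so that a rise above 1.5-fold, 0.585 on this scale, lay outside the interval. Leaving out WT replicate 3 made it 0.062, and leaving out homo replicate 1 made it 0.25.

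Frzb was the steadiest gene in WT, with 9.85, 10.1 and 9.92 CPM. It had 11.3, 12.99 and 9.96 CPM in het and 11.01, 9.96 and 8.96 CPM in homo. Only het replicate 2 stood above 12 CPM. Homo against WT gave a log2 fold change of 0.01 (SE 0.15, 95% interval −0.32 to 0.34), and het against WT gave 0.20 (SE 0.15, 95% interval −0.13 to 0.53).

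Npy had the fewest reads, 39 to 114 counts per library, and its precision was the poorest. It had 3.87, 2.80 and 1.96 CPM in WT, 5.36, 3.17 and 1.56 in het, and 4.13, 2.26 and 1.86 in homo. In all 3 genotypes the order was replicate 1, then 2, then 3. The log2 fold change of homo against WT was −0.06 (SE 0.47). Its 95% interval from −1.12 to 1.01, in the fit without replicate number, reaches past a 2-fold change in either direction. In a fit blocked by replicate number the change was −0.09 (SE 0.21, 95% interval −0.57 to 0.39).

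**Figure D2:**
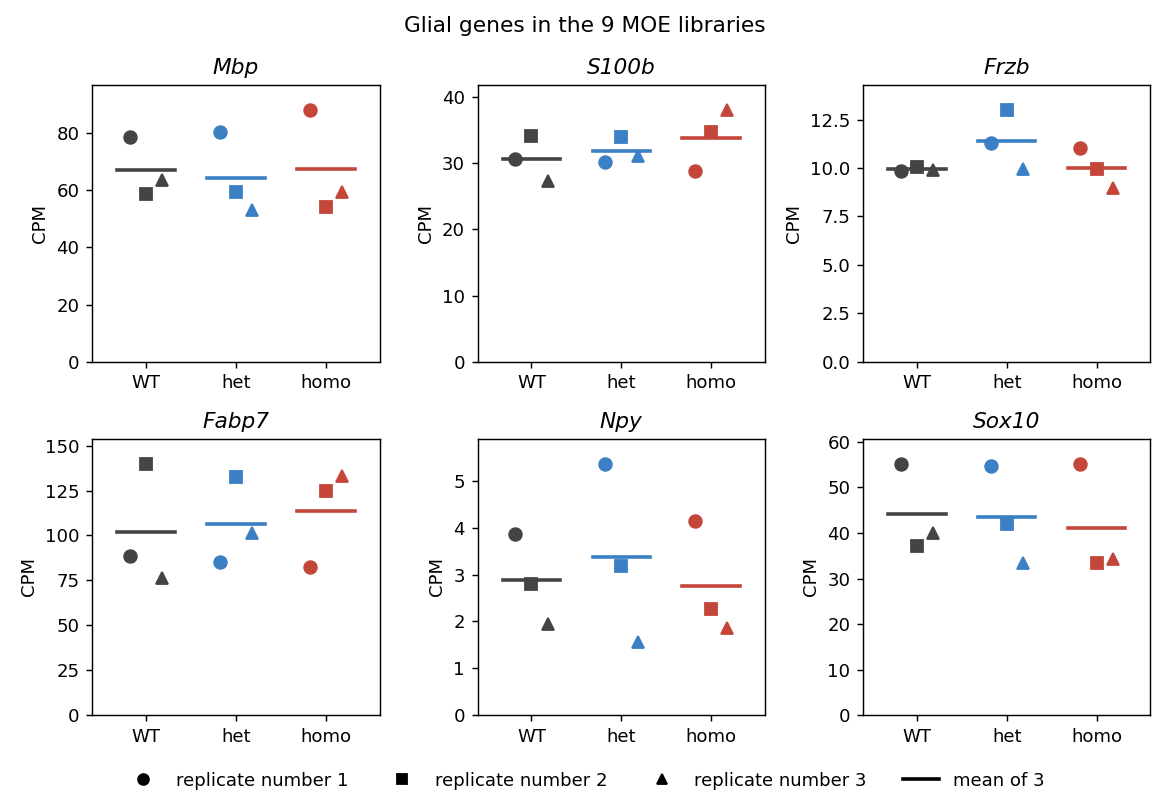
CPM of each gene in the 9 libraries (vertical axis from 0), by genotype, with 1 point per library, a marker shape for the replicate number and a line for the mean of 3. Within each genotype the circle of number 1 is the highest point for Mbp, Npy and Sox10, while the genotype means lie within the spread of the libraries.

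For no gene did all 3 homo libraries lie outside the WT range on one side, nor all 3 het libraries, where 5.49% and 3.90% of all genes tested had ranges that lay apart in these comparisons. Homo against WT and het against WT share the WT libraries and are not independent of each other. Within number 1 alone, with 1 library per genotype and no replicate check, the log2 ratio of homo to WT lay between −0.11 (Fabp7) and 0.16 (Mbp). Over numbers 2 and 3 the ratios lay between −0.21 (Npy) and 0.26 (Fabp7). The sign of this ratio differed between the 2 sets of libraries for every gene of the 6 except Sox10, whose ratio in number 1 was nearly 0.

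The second comparison followed the replicate number, with genotype in the model. It was chosen with earlier results of these data known, in which number 1 stood apart. Its p-values and calls, here and for the lists further on, therefore describe these libraries only. A difference between any of the 3 numbers was called for 3 of the 6 genes, against 20.6% of all genes tested. They were Mbp (adjusted p 0.00643), Sox10 (0.00655) and Npy (0.00992, edgeR quasi-likelihood test). Fabp7 had an adjusted p of 0.0574, and S100b and Frzb had 0.460 and 0.462 in the same edgeR test. Without het replicate 1, or without homo replicate 1, 0 of the 6 were called by this test over all numbers.

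Between number 1 and the mean of numbers 2 and 3, Npy was higher by 1.01 on the log2 scale (SE 0.18, edgeR adjusted p 0.00421) and Sox10 by 0.60 (SE 0.09, edgeR adjusted p 0.00197). These 2 of 6 genes were called, against 9.16% of all genes tested, 5.52% in the higher and 3.64% in the lower direction. The change of Sox10 was just over the fold limit of 0.585 and fell under it, to between 0.55 and 0.58, with library totals for scaling and when WT replicate 2, het replicate 3 or either of homo replicates 1 and 2 was left out. Npy alone was then called. Without WT replicate 1, Mbp (0.59) also passed the limit. In CPM, Sox10 had 54.8 to 55.2 in the 3 libraries of number 1 and 33.4 to 42.0 in the other 6, and Npy had 3.87 to 5.36 against 1.56 to 3.17.

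Mbp was higher in number 1 by 0.52 on the log2 scale (SE 0.07, edgeR adjusted p 0.00190), under the fold limit, with 78.7 to 88.0 CPM against 53.1 to 63.4. Fabp7 was lower by 0.43 (log2 fold change −0.43, SE 0.14, edgeR adjusted p 0.0494), also under the fold limit, and its adjusted p ranged from 3.7e-04 without WT replicate 3 to 0.27 without homo replicate 1. With no fold limit, 4 of the 6 genes therefore had an adjusted p under 0.05, against 30.7% of all genes tested. S100b (−0.13, SE 0.10, 95% interval −0.36 to 0.09) and Frzb (0.07, SE 0.11, 95% interval −0.17 to 0.32) did not pass.

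The ranges of number 1 and of numbers 2 and 3 lay apart for Mbp, Npy and Sox10, 3 of 6 genes, against 34.3% of all genes tested. Within genotypes, the CPM of number 1 over the mean of numbers 2 and 3 was 1.43, 1.45 and 1.63 for Sox10 in WT, het and homo. The ratios for Mbp were 1.29, 1.43 and 1.55, and those for Npy were 1.63, 2.27 and 2.01. For Fabp7 they were 0.822, 0.729 and 0.638. The direction of this ratio was thus shared by the 3 genotypes in each of these 4 genes. For Fabp7 in WT, however, number 1 lay below number 2 but above number 3. The ratios of S100b, which did not pass the test, were 0.998, 0.929 and 0.793, and those of Frzb were 0.986, 0.983 and 1.16.

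Transcripts of other cells moved with the number, in libraries where 34.3% of all single genes tested had ranges of number 1 and of the rest apart. Summed over 6 fibroblast genes, number 1 had 11399 to 12459 CPM and the other libraries 7148 to 8804. The corresponding ranges were 10.1 to 18.6 against 2.52 to 3.65 for 6 skeletal muscle genes. For 4 basal cell genes they were 154 to 244.8 against 78.8 to 108.9. For 6 immature OSN genes they were 1739 to 1784 against 1309 to 1675. For 7 cartilage and bone genes they were 1141 to 1567 against 819.6 to 966, with Ibsp (mean 696 CPM) weighing most. Of these 7, 4 passed the adjusted p, all higher in number 1, beside 30.7% of all genes tested that passed it in either direction. Bglap (−0.45, SE 0.16) and Matn1 (−0.76, SE 0.40) pointed lower and did not pass. The sums of mature OSN (5998 to 6458 against 6061 to 6864), sustentacular (2823 to 2965 against 2738 to 3565), endothelial (138.2 to 155 against 114 to 176.4), blood (65.6 to 78.5 against 31.5 to 85.8) and macrophage and neutrophil genes (796.8 to 1119 against 347.1 to 3585) overlapped. The blood sum rests on Alas2 and Slc4a1, since the 4 haemoglobin genes of that list were listed at 0 counts in all 9 libraries. No gene of the other lists summed in this paragraph was at or under 3 counts in every library. The part of these cells in the differences of Mbp, Npy, Sox10 and Fabp7 was not tested.

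**Figure D3:**
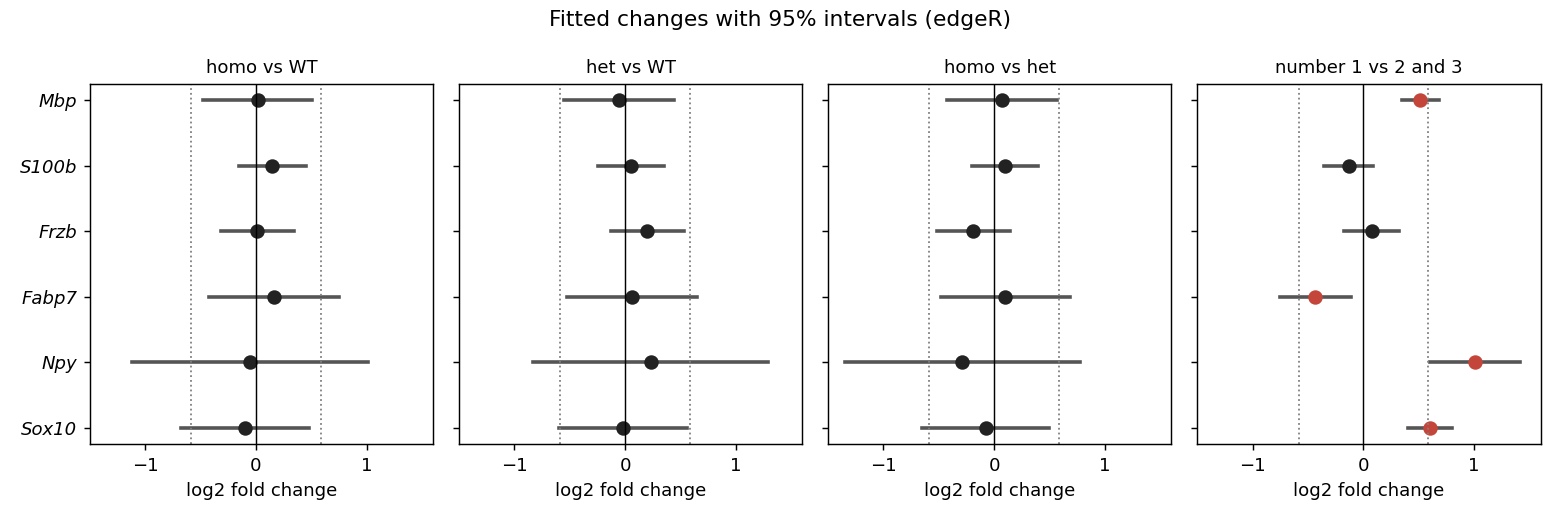
Log2 fold changes of the 6 genes (points) with 95% intervals (lines) in the 3 genotype comparisons and between replicate number 1 and numbers 2 and 3. Red points have an adjusted p under 0.05 and dotted lines mark a 1.5-fold change; all genotype intervals include 0, and Mbp, Npy and Sox10 lie to the right and Fabp7 to the left of 0 in the last panel.

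The 6 genes were also compared by their course over the 9 libraries. Mbp and Sox10 had a Pearson r of 0.96 over log2(CPM + 1), Npy and Sox10 had 0.90, and Mbp and Npy had 0.84. S100b and Fabp7 had 0.93, and Fabp7 had −0.67 with Mbp and −0.64 with Sox10. These values describe 9 libraries that share 3 replicate numbers, with number 1 apart from the rest for 3 of the genes. Over the 6 libraries of numbers 2 and 3 alone, r was still 0.92 for S100b with Fabp7. It was 0.74 for Mbp with Sox10, 0.65 for Npy with Sox10, 0.29 for Mbp with Npy and −0.17 for Fabp7 with Sox10. Frzb had 0.73 with Npy and 0.72 with Sox10 there, beside 0.55 and 0.42 over all 9. Fabp7 with Npy went from −0.34 over all 9 to 0.55. The likeness of Mbp, Npy and Sox10 was thus weaker without number 1.

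**Figure D4:**
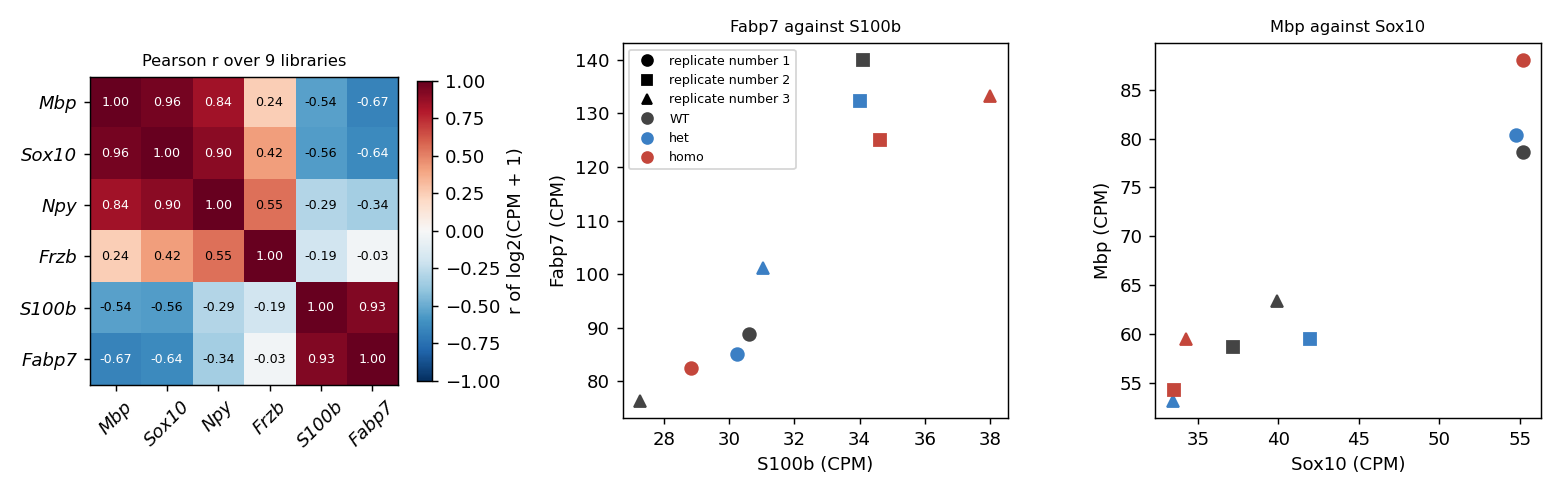
Left, Pearson r of log2(CPM + 1) between the genes over the 9 libraries; middle and right, CPM of Fabp7 against S100b and of Mbp against Sox10, 1 point per library, coloured by genotype with a shape for the replicate number. Fabp7 and S100b line up over all libraries, whereas Mbp and Sox10 fall into the 3 libraries of number 1 at the upper right and the other 6.

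The ratio of Sox10 to Fabp7 reads followed the replicate number. Sox10 had 0.621, 0.644 and 0.670 counts per count of Fabp7 in replicate 1 of WT, het and homo. In the other libraries the ratio lay between 0.257 and 0.331, except for 0.523 in WT replicate 3. Such a ratio does not depend on library scaling, and it gives the level of one gene relative to the other only.

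By correlation over the 9 libraries, the genes most like each member among 16132 genes with a mean of at least 1 CPM were Lrrn2, Foxd3 and Dnajb12 for Sox10 (r 0.99 for each). They were Shank1, Eif3d and Stim1 for Mbp (0.99 each) and Stk35, C2cd3 and Smim19 for Npy (0.98, 0.97 and 0.96). Mthfd2, a mitochondrial folate enzyme gene, came first for both S100b (0.97) and Fabp7 (0.98), followed by Ell3 and Ccdc110 for S100b (0.97 for each) and by Lonrf3 and Eml6 for Fabp7 (0.98 and 0.97). Frzb had no neighbour as close, with Gpr37l1 (0.87), Panx2 (0.85) and AI197445 (0.84). Foxd3, a neural crest transcription factor gene, is the only one of these that also stood in the glial lists described next.

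The other glial genes were examined as lists. In the genotype comparisons 0 of 12 ensheathing glia genes, 0 of 15 Schwann cell and neural crest genes and 0 of 16 peripheral myelin genes were called. Their median log2 fold changes in homo against WT were −0.14, −0.09 and 0.01, beside 0.004 over all genes tested and 0.01 over the 6 members. At an unadjusted p under 0.05 there were 2, 0 and 1 genes in that comparison, beside 682 of all 19775 genes tested. The 2 ensheathing glia genes were Gfap (log2 fold change −1.61, SE 0.46) and Prss56 (−1.64, SE 0.63), named after their values were seen, and Gfap had 12.1 CPM in WT replicate 3 against 1.97 to 4.68 in the other 8 libraries. Without that library their log2 fold changes were −0.84 and −0.64. The myelin gene was Gjb1 (−0.97, SE 0.38), named in the same way. All 3 had an edgeR adjusted p of 1.

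Between number 1 and the others, the glial lists held changes in both directions. Over all genes tested, 9.16% were called in this comparison, 5.52% higher and 3.64% lower, and the counts of called list genes from here on stand beside that share. Of the ensheathing glia genes, 3 of 12 were called, with Foxd3 (log2 fold change 1.06, SE 0.15, edgeR adjusted p 0.00178) and Ngfr (0.80, SE 0.22), the low-affinity neurotrophin receptor, higher and Apod (−0.83, SE 0.17), an apolipoprotein gene, lower. Apod had 237 to 294 CPM in number 1 and 391.5 to 799 in the other libraries, with the highest value in WT replicate 3. Cdh2 (0.55, SE 0.06), which encodes N-cadherin and is among the most abundant genes of the list, passed the adjusted p but not the fold limit. The list's median was −0.09, beside −0.02 over all genes tested.

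Of the Schwann cell and neural crest genes, 6 of 15 were called, 4 higher and 2 lower, beside 9.16% of all genes tested, with a median of −0.03. The higher ones were Sox2 (0.76, SE 0.06), a factor of immature glia and progenitors, Gap43 (0.59, SE 0.08), Foxd3 and Pou3f1, a Schwann cell factor that had only 0 to 12 counts per library. The lower ones were Cdh19 (−0.74, SE 0.12) and Scn7a (−0.67, SE 0.13), both known from Schwann cells. Outside glia, Gap43 is expressed by immature OSNs and Sox2 by basal and sustentacular cells. Ncam1 (0.41, SE 0.07) passed the adjusted p but not the fold limit, and L1cam (−0.03, SE 0.06) did not pass.

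Of the peripheral myelin genes, 4 of 16 were called, all higher in number 1, beside 5.52% of all genes tested in that direction, and the median was 0.26. The number was 2 of 16 under DESeq2 and also without het replicate 1 or either of homo replicates 1 and 2. Among the 4 was Cldn11, a tight junction gene that does not by itself mark peripheral myelin. It had 46.8 to 49.7 CPM in number 1 and 26.7 to 33.9 CPM in the other libraries. These ranges did not overlap, and the log2 fold change was 0.71 (SE 0.09). Cldn19 (1.06, SE 0.30) and Fa2h (1.06, SE 0.32) were also called, at 11 to 32 counts per library. Not all myelin genes went this way, since Mal (−0.30, SE 0.07), among the most abundant of the list, was lower with an adjusted p (edgeR) of 0.0184 and stayed under the fold limit. Apart from the 3 genes of highest CPM in each list, the genes named for this comparison were chosen because they were called, after their values were seen.

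**Figure D5:**
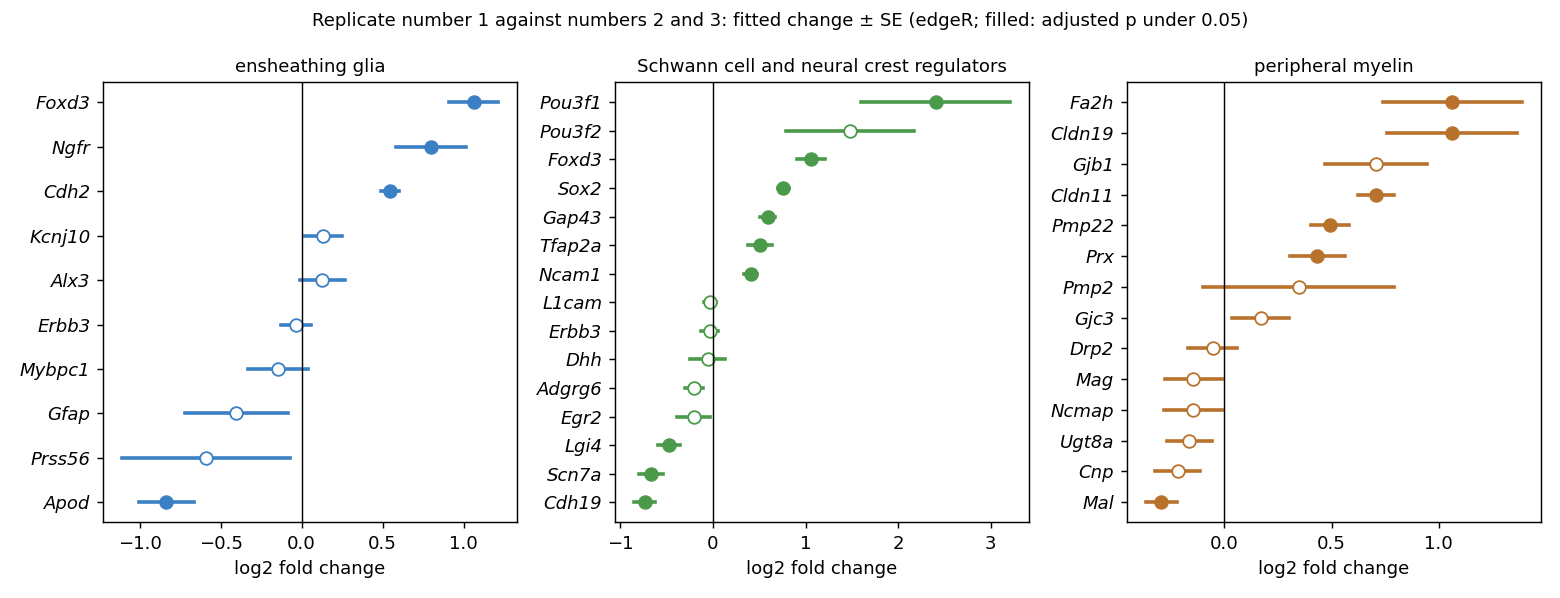
Log2 fold change ± SE between replicate number 1 and numbers 2 and 3 for genes of the 3 glial lists; filled points have an adjusted p under 0.05. Foxd3 and Erbb3 stand in both the ensheathing glia and the Schwann cell lists, and not every list gene is drawn. In the myelin panel Cldn19 and Fa2h, at 1.06, lie to the right and Mal, at −0.30, to the left of 0.

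Genes that the brain's glia and neurons use were set beside these. Of the oligodendrocyte list 2 of the 7 genes tested were called higher in number 1, Olig1 (0.72, SE 0.07) and Bcas1 (1.12, SE 0.11), with Olig2 at 0.51 (SE 0.08) under the fold limit. Olig1 and Olig2 were at 33.6 to 69.5 and 54.9 to 93.0 CPM and Bcas1 at 4.61 to 13.7 CPM while Mog and Opalin were at or near 0. Of the astrocyte list, 1 of 6 was called, the glutamate transporter gene Slc1a2 (−0.86, SE 0.09, lower in number 1). Aqp4 (−0.34, SE 0.06) passed the adjusted p alone, and Gja1 (0.01, SE 0.05) did not pass. Of the bulb neuron list, 1 of 8 was called, Tbr1 (0.65, SE 0.18, higher in number 1), and Calb2 (0.33, SE 0.05), Gad2 (0.32, SE 0.15) and Reln (0.11, SE 0.14) were not. None of these 3 lists held an edgeR call in any genotype comparison, and in homo against WT none of their genes had an unadjusted p under 0.05.

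Family members and partners of the 6 genes are set beside them for the same comparison. Of the SoxE factors, which include Sox10, Sox9 was called higher in number 1 (0.74, SE 0.11) and Sox8 had 0.25 (SE 0.16). Of 6 tested fatty acid-binding protein genes other than Fabp7, 1 was called lower, Fabp4 of fat and endothelial cells (−1.13, SE 0.15), while Fabp5 had 0.22 (SE 0.07) and Fabp3 −0.21 (SE 0.19). Of 14 S100 genes other than S100b, 2 were called lower, S100a8 (−2.69, SE 0.62) and S100a9 (−2.66, SE 0.56), both neutrophil genes with their highest value in WT replicate 3. S100a5, which OSNs express, had −0.48 (SE 0.15) and S100a11 0.49 (SE 0.26).

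Of 8 tested secreted Wnt antagonists other than Frzb, 2 were called higher, Sfrp2 (0.81, SE 0.06) and Sfrp5 (0.81, SE 0.18), and Sfrp1 (0.48, SE 0.08) and Sfrp4 (0.48, SE 0.15) lay under the fold limit, beside 0.07 for Frzb itself. Of the neuropeptide Y system, 0 of 6 tested genes were called by edgeR, with 2 at an unadjusted p under 0.05, Dpp4 and Cpe. Both also passed the adjusted p but not the fold limit. Dpp4, which cleaves the peptide, had −0.54 (SE 0.10), and Cpe and Pam, which process it, had 0.19 (SE 0.06) and −0.15 (SE 0.07). Of the neuregulins and other axonal signals, 1 of 9 was called, in the higher direction, with Adam22 (−0.35, SE 0.08), Nrg1 (0.20, SE 0.11) and Nrg2 (0.61, SE 0.23) not called. In the genotype comparisons 0 genes of these 6 lists of relatives and partners were called by edgeR, and in homo against WT 1 S100 gene and 1 axonal signal gene had an unadjusted p under 0.05, beside the 682 of 19775 genes given above.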

How the data were processed

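RNA of the whole MOE was made into directional polyA-selected libraries. Per the labels, the authors trimmed reads with Trimmomatic 0.36, mapped them to GRCm38/mm10 with HISAT2 2.1.0 and counted them per gene with featureCounts of Subread 1.6.2. The annotation release, the strand setting and the handling of reads with several matches are not given in the sources used here. The deposited raw counts were used for all tests. The deposited normalized counts, a signal made by the authors with DESeq2 1.20.0 as each count divided by 1 size factor per library, were used for 1 alternative.

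Genes with at least 10 counts over the 9 libraries were fitted on raw counts with edgeR 4.0.16 (TMM, quasi-likelihood test, two-sided) in R 4.3.3, by genotype, and by genotype plus replicate number for the comparisons of numbers. A gene was called at a Benjamini-Hochberg adjusted p under 0.05 and a fold over 1.5. Groups came from the sample titles. The 6 genes, the lists and the tests were chosen with earlier results of these data known. The text names the 6 genes, the 3 genes of highest mean CPM in each glial, brain or related-gene list, list genes called between genotypes, and the 3 genes most correlated with each of the 6. Some list genes that enter the counts are not reported here. Exon lengths and positions came from GENCODE for GRCm38 (23309 of 24421 symbols matched), and promoter windows from RefSeq, which held 4 of the 6 genes. In simulated data with 200 genes changed 2-fold, 92% were recovered for homo against WT (19747 genes) and 96.5% for number 1 against the others (19772 genes). The changed genes were drawn from those with higher counts. For homo against WT the simulated libraries held no differences between replicate numbers, which the real libraries do. The 92% is therefore not the recovery of the reported genotype test in the real libraries.

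Same-numbered libraries of different genotypes were compared by how 16157 genes deviated from their group mean. For numbers 1, 2 and 3 in turn, WT and het correlated at 0.673, 0.45 and 0.608, het and homo at 0.786, 0.317 and 0.128, and WT and homo at 0.516, 0.293 and −0.097. Pairing required over 0.1 in each of the 3 numbers, which the WT with homo combination missed, so pairing by number was accepted for het with WT and for het with homo. Genotype fits are reported without the block, which was an alternative, except where a block is named. Their intervals therefore take in the differences between replicate numbers. No libraries were duplicates. Alternatives were DESeq2 1.42.0, limma-voom (limma 3.58.1), median-ratio scaling, library totals, other filters, each library left out, a replicate block, a batch term, fits of 2 genotypes only, 1 coefficient for number 1, and only genes with normalized counts. Counting error alone sets a floor of 3 counts per library.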

Additional observations from a re-analysis of the deposited data

Results flagged for a closer look

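For Frzb, the secreted Wnt antagonist gene, which did not pass the test for replicate number, the ratio of number 1 to the others lay on opposite sides of 1 in WT and homo. Its CPM in replicate 1 was 0.986 times the mean of replicates 2 and 3 in WT and 1.16 times that mean in homo. The 3 WT libraries were nearly level, at 9.85, 10.1 and 9.92 CPM. The difference between these ratios was not tested, and each rests on 1 library against 2.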

How the results depend on the processing

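No alternative gave a call for any of the 6 genes in a genotype comparison, including the replicate block, under which the log2 fold change of Mbp in homo against WT was −0.0069 and the calls of the 6 genes and of the 3 glial lists were unchanged. Of 778 values under alternatives over 66 results, 726 were counted as the same. A fold change counted so if it kept its sign and its side of the call. Counts of called genes, list medians and levels counted so if they stayed within a set distance of the main value. The sign of 34 member fold changes between genotypes turned, none of them called. Outside the left-out libraries these were Mbp in homo against WT under limma-voom (−0.0066), under the replicate block as given and with a batch term for number 1 (−0.0069), and Sox10 in het against WT with library totals (0.0016).

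With each library left out, the log2 fold change of homo against WT ranged from −0.23 to 0.16 for Mbp, 0.062 to 0.25 for S100b, −0.065 to 0.095 for Frzb, −0.013 to 0.46 for Fabp7, −0.47 to 0.22 for Npy and −0.38 to 0.11 for Sox10. For het against WT the ranges were −0.25 to 0.095 for Mbp, −0.033 to 0.14 for S100b, 0.11 to 0.30 for Frzb, −0.12 to 0.36 for Fabp7, −0.27 to 0.58 for Npy and −0.23 to 0.19 for Sox10. For homo against het they were −0.18 to 0.27 for Mbp, 0.0077 to 0.19 for S100b, −0.28 to −0.089 for Frzb, −0.030 to 0.29 for Fabp7, −0.71 to 0.22 for Npy and −0.36 to 0.13 for Sox10.

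Of the 6 genes, 0 to 4 were called over all replicate numbers with each library left out (0 without het replicate 1 or homo replicate 1), when the calls over all genes fell to 714 without het replicate 1. Between number 1 and the others 1 to 3 were called, and 1 with library totals, where Sox10 had 0.582. The called myelin genes numbered 2 under DESeq2 and 2 to 4 with each library left out, an alternative chosen after seeing the data. Frzb in homo was 102.3% of WT with library totals and 100.4% with TMM. Over all genes, the calls numbered 6 under DESeq2 and 1 under limma-voom in homo against WT, and 5 under DESeq2 and 3 under the replicate block in homo against het. Of the 6 genes, Npy had the fewest counts and the widest intervals.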
